A study of Mus musculus with 2 samples.

Results

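The feedback inhibitors of canonical WNT signaling described here are Axin2, Nkd1, Nkd2, Notum, Znrf3, Rnf43 and Apcdd1, and they are joined by Sp5 and Sp8, which encode transcription factors of the SP family. These 9 genes were found by their names in both scanner files. They were represented by 13 of 39429 probes and make up 9 of 29875 genes on the array. The RNA came from E12.5 ureters of wildtype NMRI embryos, whose sex was not determined. As control, explants were kept for 18 h in medium with the solvent DMSO (2 in 1000 parts), and in the other group the culture held 10 µM BIO. Each of 2 arrays compared control RNA with BIO RNA, with the dyes exchanged, and BIO was red in replicate 1 and green in replicate 2. RNA was pooled from whole ureters, so that epithelium, mesenchyme and vessels were measured together, and a change in the number of cells of a type cannot be told apart from a change of RNA per cell.

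In the canonical WNT pathway, a destruction complex built around AXIN and APC holds CTNNB1 (beta-catenin) low through phosphorylation by GSK3. WNT binding to Frizzled and LRP receptors stalls this complex, CTNNB1 accumulates, enters the nucleus and switches on target genes together with TCF/LEF factors. Some of these targets act back on the pathway at the levels of ligand, receptor, transducer and transcription. BIO (6-bromoindirubin-3-oxime) blocks GSK3 and so acts below the receptors. In the early ureter, WNT ligands from the epithelium signal to the surrounding mesenchyme.

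With BIO, 7 of the 9 genes rose and 0 fell at their brightest probe (limma, adjusted p below 0.05, n = 2 arrays). The 7 were Sp5, Axin2, Nkd1, Notum, Apcdd1, Rnf43 and Znrf3. Sp8 and the brightest probe of Nkd2 were not called. When the score table of the submitters was tested in place of the scanner intensities, only Sp5 kept its call and 6 of the 7 were lost, at adjusted p from 0.054 to 0.29 (limma), with ratios in the same direction. By the scanner intensities 9.13% of all 21574 genes tested rose (1970 genes) and 14.8% fell, while by the scores 1929 genes rose. An unadjusted p below 0.05 in the same limma fit added no member, with 7 higher and 0 lower. This looser cut-off could not lose any of the 7 called above, so it adds no support. The share of all genes at that cut-off was not counted. The median log2 ratio of BIO over control was 1.03 for the 9 members, with 1.21 in replicate 1 and 0.88 in replicate 2, while it was -0.01 for all genes tested and 0.53 for the genes that rose. By probe, 10 of the 12 member probes tested rose and 0 fell, against 8.95% of all probes that rose. The processed signals of both BIO channels lay above those of both control channels for 8 of 9 members, against 29.9% of all genes tested, and Nkd2 was the exception.

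**Figure D1:**
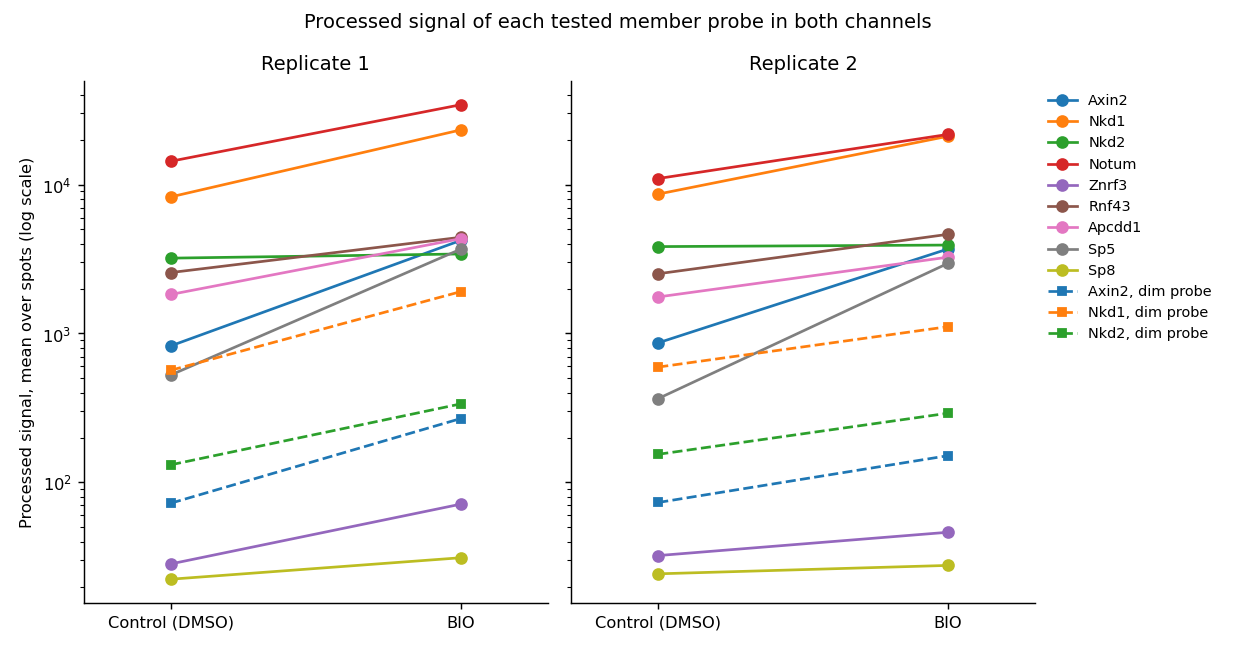
Processed signal (background-subtracted and dye-normalized intensity, mean over the spots of a probe, log scale) of each tested member probe in the control and the BIO channel, with replicate 1 left and replicate 2 right. Solid lines are brightest probes and dashed lines the second probe of Axin2, Nkd1 and Nkd2. The lines of Sp5 and Axin2 are the steepest in both panels and the solid line of Nkd2 is nearly flat. Heights of different probes are not comparable.

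Ratios of the intracellular inhibitors differed widely. Axin2 (NM_015732) encodes a scaffold of the destruction complex and is a widely used reporter of pathway activity. Its brightest probe (chromosome 11, 108812034 to 108812093, mm9) went from a processed signal of 827 in control to 4212 with BIO in replicate 1 and from 865 to 3690 in replicate 2. Both BIO values exceeded both control values by over 4-fold. Its log2 ratios of 2.27 and 2.03 averaged 2.15 ± 0.12 (SE, n = 2 arrays), at an adjusted p of 3.41e-05 (limma), and only 11 of all genes tested had a larger mean. The second probe of Axin2 (chromosome 11, 108803927 to 108803986) was dimmer and went from 72.6 to 268 in replicate 1 and from 73.3 to 151 in replicate 2. It also rose, by 1.13 ± 0.17 (SE), with ratios of 1.501 in replicate 1 and 0.75 in replicate 2 (adjusted p = 0.0025, limma).

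Nkd1 (NM_027280) encodes Naked cuticle 1, which binds the WNT transducer Dishevelled. The brightest probe (chromosome 8, 91116160 to 91116219) went from 8266 in control to 23251 with BIO in replicate 1 and from 8627 to 21080 in replicate 2. Its log2 ratios of 1.39 and 1.254 were close together and averaged 1.32 ± 0.11 (SE, adjusted p = 0.00017, limma). For the second probe (chromosome 8, 91118468 to 91118527) control signals were 567 and 595, and the BIO signals were 1908 and 1110. This probe rose as well, by 1.20 ± 0.19 (SE, adjusted p = 0.0031), but its ratio was 1.65 in replicate 1 and only 0.76 in replicate 2.

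The paralog Nkd2 (NM_028186) encodes the other Naked cuticle protein, and its probes gave unlike results. At the brightest probe (chromosome 13, 73956776 to 73956835, minus strand) the control signals were 3203 and 3829 and the BIO signals 3417 and 3921, and the ranges overlapped. The log2 ratios were 0.08 and -0.00, and the mean of 0.04 had a 95% interval from -0.21 to 0.28 (adjusted p = 0.86). At the second probe (chromosome 13, 73957581 to 73957640) the signal went from 131 to 336 in replicate 1 and from 154 to 291 in replicate 2. Here the ranges did not overlap and the log2 ratio was 1.09 and 0.73, with a mean of 0.91 ± 0.12 (SE, adjusted p = 0.0015).

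The disagreement between probes was tested directly, after the values had been seen, for all 5639 genes with at least 2 tested probes. The log2 ratio of the second probe minus that of the brightest was fitted with limma. In 4.31% of these genes the probes differed at an adjusted p below 0.05. Nkd2 was among them, with a difference of 0.87 ± 0.14 (SE, adjusted p = 0.0019), which was larger in size than in 98.8% of the genes. Axin2 was also among them, with -1.02 ± 0.15 (SE, adjusted p = 0.00086), larger in size than in 99.2%. The Nkd1 probes gave a difference of -0.12 ± 0.17 (SE, adjusted p = 0.9999, limma). It was 0.26 in replicate 1 and -0.49 in replicate 2, so that opposite signs lie behind this small mean. In Axin2 the dimmer probe had the smaller ratio, whereas in Nkd2 it had the larger one. The offset added to the intensities in the correction of background pulls ratios of dim probes toward 0. By processed signals Axin2 rose 5.10-fold and 4.26-fold at its brightest probe and 3.69-fold and 2.06-fold at the second. The part of the offset in the Axin2 difference was not tested.

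The last 30 of the 60 bases of these 6 probes are shown because the call for Nkd2 turns on which probe is read. The probes are written 5′ to 3′ as on the array. Capitals mark AATAAA or ATTAAA, the common letters of a polyadenylation signal, which were searched for on the probe strand and are held by 16.7% of all 39429 probes. This search was chosen after the probes had been seen.
Axin2 brightest probe: tgtagcctttATTAAAattttatatttttc
Axin2 second probe: caaatgcaaaagccacccgaaggctccaga
Nkd1 brightest probe: gacacatggaaacacagaagtaaactttta
Nkd1 second probe: gagtcaaaggtaagtcagcaggctccatct
Nkd2 brightest probe: ataaaacaccaatgaacataagcttttttc
Nkd2 second probe: cttggcatAATAAAgaattgtgcattctgt
The letters stood from base 41 of the brightest Axin2 probe and from base 39 of the second Nkd2 probe, and none of the other 4 probes held them. The second Nkd2 probe began at base 2357 of the listed transcript and the brightest at base 3162. In Axin2 the order was the opposite, with the brightest probe at base 4196 and the second at base 1971. The probe with the larger ratio thus held the letters in both genes. Which transcript ends were present was not tested.

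**Figure D2:**
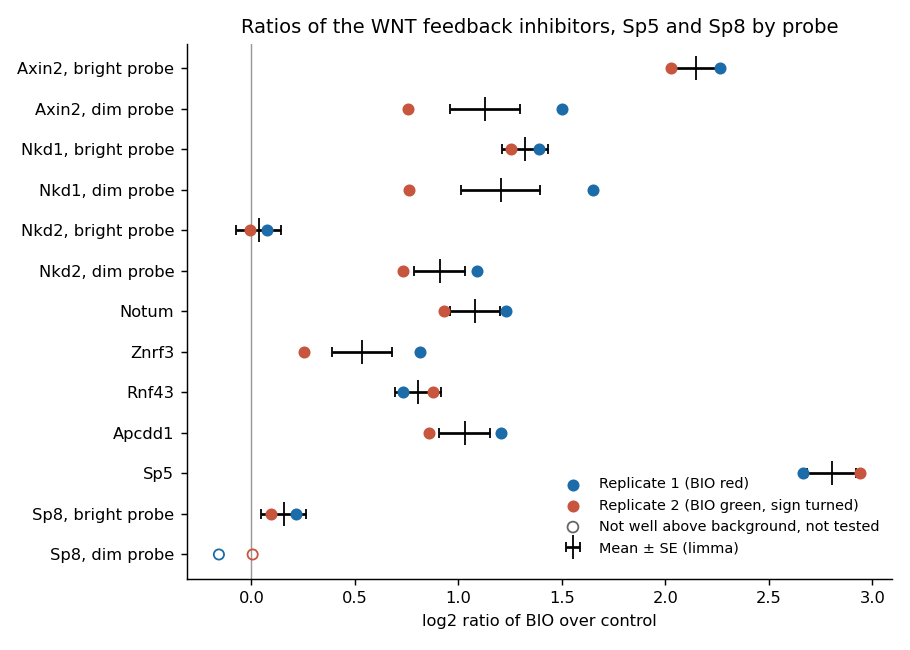
The log2 ratio of BIO over control is shown for each of the 13 member probes, with 1 point per array and the mean ± SE of the limma fit. Open points belong to the second Sp8 probe, which did not have enough spots well above background to be tested. The arrays lie close together for the brightest probes of Nkd1 and Nkd2, and far apart for the second probes of Axin2 and Nkd1 and for Znrf3.

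Notum was the secreted member, and it encodes a carboxylesterase that removes the lipid from WNT ligands. Its probe (NM_175263, chromosome 11, 120515209 to 120515268, minus strand) went from 14337 in control to 34310 with BIO in replicate 1 and from 10970 to 21691 in replicate 2. Both BIO channels were higher than both control channels. The log2 ratios of 1.23 and 0.93 averaged 1.08 ± 0.12 (SE, adjusted p = 0.00057). The long noncoding gene Notumos, named for the strand opposite to Notum, had a probe on the plus strand at 120523011 to 120523070. It had control signals of 233 and 164 and BIO signals of 2060 and 1648. The log2 ratio of Notumos was 2.94 and 3.095, with a mean of 3.02 ± 0.11 (SE, adjusted p = 1.42e-05), which was larger than that of Notum on both arrays. That difference was not tested.

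Both members encoding membrane E3 ubiquitin ligases, which clear Frizzled receptors from the cell surface and are themselves held back by R-spondins, rose. Rnf43 (NM_172448, chromosome 11, 87548958 to 87549017) had control signals of 2565 and 2517 and BIO signals of 4422 and 4629. Its ratio was nearly the same on both arrays, 0.73 and 0.88, and the mean was 0.81 ± 0.11 (SE, adjusted p = 0.0016). Znrf3 (NM_001080924, chromosome 11, 5180918 to 5180977) was measured at a low signal. Its control signals were 28.4 and 32.3, and its BIO signals were 71.4 and 46.3, although all 4 spots were well above background in every channel. Its log2 ratios of 0.82 in replicate 1 and 0.25 in replicate 2 averaged 0.53 ± 0.15 (SE, adjusted p = 0.033).

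The call of Znrf3 was lost under more alternatives than that of any other member. With the processed signals its log2 ratio was 0.93 (adjusted p = 0.057, limma), with median centering of each array 0.48 (adjusted p = 0.15), and without a filter on dim probes 0.53 (adjusted p = 0.067). With the score table of the submitters it was 0.95 (adjusted p = 0.29), and in that table Axin2, Nkd1, Notum, Apcdd1 and Rnf43 lost their calls too. The direction of Znrf3 was upward each time. The call was kept with an offset of 16, at 0.66 (adjusted p = 0.041, limma), and with no background correction, at 0.61 (adjusted p = 0.019). The offset added to the intensities in the correction of background pulls the ratios of dim probes toward 0. By processed signals Znrf3 rose 2.52-fold in replicate 1 and 1.43-fold in replicate 2, so the arrays differed there as well. The part of the offset in the Znrf3 ratio was not tested.

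Apcdd1 (NM_133237) encodes a membrane glycoprotein that binds WNT and LRP. Its signal went from 1829 to 4329 in replicate 1 and from 1759 to 3251 in replicate 2, so that the channels did not overlap. The log2 ratios of 1.21 and 0.86 gave a mean of 1.03 ± 0.12 (SE, adjusted p = 0.00083). Its ratios were close to those of Notum on both arrays. Each rested on 3 spots, since 1 spot per array had been marked as an outlier.

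Sp5 had the largest ratio of the 9 genes. It encodes a zinc finger factor that binds GC-rich DNA and can restrain transcription of WNT targets. The probe (NM_022435, chromosome 2, 70315688 to 70315747) went from 527 in control to 3679 with BIO in replicate 1 and from 366 to 2954 in replicate 2. BIO channels were thus 6.98-fold and 8.08-fold above control. The log2 ratio was 2.66 and 2.94, with a mean of 2.80 ± 0.12 (SE, adjusted p = 2.65e-05), and only 4 of the 21574 genes tested had a larger mean.

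The 250 bases before the start of Sp5 (RefSeq, GRCm38.p6, chr2:70474673-70474922, plus strand) are shown because Sp5 had the largest response and its window was the only member window with more than 1 match to TCF/LEF letters. Capitals mark these matches. The forms searched for were CTTTGAA, its variant with a closing T, CTTTGAT, and the forms CTTTGTT as well as CTTTGTA, on both strands in 300 bases, from 250 before to 50 after each start.
Sp5: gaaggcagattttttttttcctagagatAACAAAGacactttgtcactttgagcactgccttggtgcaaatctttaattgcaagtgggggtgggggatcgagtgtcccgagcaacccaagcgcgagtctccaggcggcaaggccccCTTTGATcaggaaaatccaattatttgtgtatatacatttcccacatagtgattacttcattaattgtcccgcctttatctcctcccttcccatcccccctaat
The matches began at positions -222 and -104 relative to the start. Of 32851 promoter windows, 16.9% held at least 1 match and 1.94% held 2 or more. The table held 9 windows of 6 members, and 2 of the 9 windows held a match. The other belonged to Sp8, for which 1 of 3 windows held TTCAAAG at position -51. Windows of Axin2, Nkd1, Nkd2 and Rnf43 held none of these letters. The GC box GGGCGG, the usual letters bound by SP factors, was found 2 times in the Axin2 window, 1 time in the Sp8 window with the TCF/LEF match, and in 35.7% of all windows, and no GC box overlapped a TCF/LEF match. A match of letters is not a bound site, and these windows do not hold distant enhancers.

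Sp8, the closest relative of Sp5 among the members, was not called. Its brightest probe (NM_177082, chromosome 12, 120088145 to 120088204) went from 22.4 to 31.2 in replicate 1 and from 24.3 to 27.7 in replicate 2. The channels did not overlap, but the log2 ratios of 0.22 and 0.10 averaged 0.16, with a 95% interval from -0.10 to 0.41 (adjusted p = 0.36). The spots of replicate 1 scattered with an SD of 0.17, the highest of the 12 tested member probes. A second Sp8 probe had signals from 2.68 to 7.17. Only 1 of its spots, in the BIO channel of replicate 2, was well above background, and the probe was not tested.

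The Sp8 probe is shown because its level was low and because it lies in sequence that encodes a zinc finger, a fold that SP factors share. It could be read without a stop in 2 frames, and the first of them held the spacing of residues of a zinc finger. Whether other SP transcripts bind to it was not tested.
Sp8 brightest probe: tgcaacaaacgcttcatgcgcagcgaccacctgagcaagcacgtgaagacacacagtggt
Among the other 7 SP genes, 6 were tested, 1 rose and 0 fell (limma), with a median log2 ratio of 0.16. Sp7 rose by 0.75 ± 0.14 (SE, adjusted p = 0.0062), and its ratio was 1.00 in replicate 1 and 0.50 in replicate 2. Sp1, Sp2, Sp3 and Sp4, which are broadly expressed, had mean log2 ratios from 0.06 to 0.22 and were not called. Sp6 had a ratio of 0.94 in replicate 1 and -0.60 in replicate 2, and Sp9 was not tested.

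By size of the mean log2 ratio the members ranked Sp5, Axin2, Nkd1, Notum, Apcdd1, Rnf43, Znrf3, Sp8 and Nkd2. The 95% interval of Sp5, from 2.53 to 3.07, lay above that of Axin2, from 1.88 to 2.41, and the latter above that of Nkd1, from 1.07 to 1.57. From Nkd1 on, the interval of each gene overlapped that of the next, so that their order was not settled by their spread. Differences between members were not tested. The smallest ratios with a call were those of Rnf43 and Znrf3. Read at its second probe, with a ratio of 1.13, Axin2 would stand close to Nkd1 and Notum. That probe is dim, and its processed signals rose 3.69-fold and 2.06-fold, against 2.81-fold and 2.44-fold for the brightest Nkd1 probe.

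**Figure D3:**
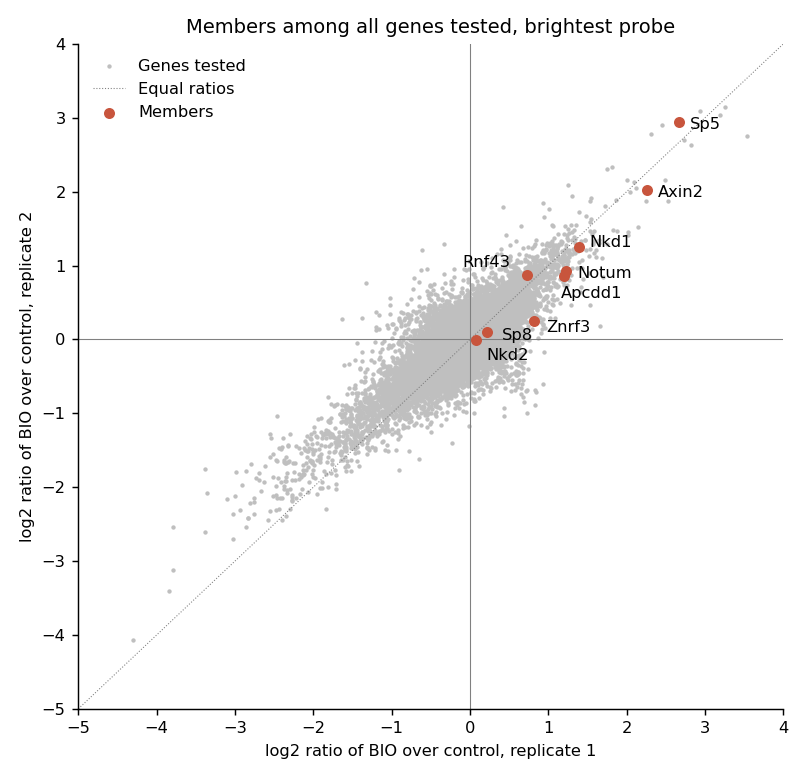
The log2 ratio of BIO over control in replicate 1 (x axis) and in replicate 2 (y axis) for the brightest probe of the 21574 genes tested, with the 9 members in color. Sp5 and Axin2 lie at the upper right end of all genes, Nkd1, Notum, Apcdd1 and Rnf43 at the upper right edge of the main cloud, and Sp8 and Nkd2 near the origin.

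A rule on intensity and fold change was also applied, with cut-offs that the study used on other arrays. Reading the intensity in the brighter channel was a choice made here. By this rule 3 members were at least 2-fold higher on both arrays with a processed signal of at least 100 in the brighter channel. They were Axin2, Nkd1 and Sp5, against 1.04% of all genes tested. This rule has no test. With a minimum of 1.5-fold it was also met by Apcdd1, Notum and Rnf43, which gave 6 members, beside 731 of all genes tested. With a minimum of 3-fold it was met by Axin2 and Sp5 only among the members, beside 35 of all genes tested.

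Of the 10 member probes that rose, 8 had a larger log2 ratio in replicate 1 than in replicate 2, while this held for 46.7% of all probes that rose. The exceptions were Rnf43 and Sp5. The median size of the difference between arrays was 0.29 for the member probes and 0.16 for all probes tested. Replicate and dye cannot be told apart here, since BIO was red in replicate 1 only.

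Other cell type and growth markers moved in the same pools. All 8 endothelial markers fell, and their summed processed signal was 28597 to 34430 in control and 5317 to 9919 with BIO. All 8 were well above background on the arrays. Of 12 markers each, 9 of the ureteric mesenchyme and 7 of the ureteric epithelium fell and 0 rose, with summed signals of 328220 to 351881 against 209643 to 232323 for the mesenchyme and of 102453 to 104537 against 56820 to 68447 for the epithelium. All of these ureteric markers passed the filter on dim probes, so that markers of both layers of the labeled tissue were measured. Summed signals follow the brightest probes most, which in the epithelium were those of Krt8 and Krt18. The 5 epithelial markers without a call, Epcam, Cldn7, Gata3, Cldn4 and Grhl2, had mean log2 ratios from -0.16 to 0.02. Of 8 kidney mesenchyme markers, 1 rose and 0 fell, with summed signals of 24126 to 25345 in control and 25388 to 25516 with BIO. All 15 cell cycle genes rose, with a median log2 ratio of 0.94, close to the 1.03 of the members. Their summed signal went from between 90921 and 102123 to between 157613 and 177906. The part of these shifts in the member ratios was not tested.

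Other genes of the pathway moved in both directions. Among 12 other WNT target genes, 5 rose, 3 fell and 4 were not called, with a median log2 ratio of 0.02. The largest rise was that of Tnfrsf19, a TNF receptor family gene, by 3.21 ± 0.11 (SE, adjusted p = 1.42e-05), and the smallest that of Cdx1, by 0.58 ± 0.11. Lgr5, which encodes an R-spondin receptor, rose by 2.09 ± 0.11, and Tcf7 and Lef1, which encode TCF/LEF factors, by 1.38 ± 0.13 and 1.07 ± 0.11. The targets that fell were Ascl2, Cd44 and Myc, with log2 ratios of -0.42, -0.62 and -0.95.

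Other inhibitors moved in both directions as well. Of 13 other membrane and intracellular inhibitors tested, 2 rose and 2 fell, and the median was -0.20. Kremen2, which encodes a receptor for DKK proteins, rose by 1.17 ± 0.13 (SE, adjusted p = 0.00056), and Tpbg by 0.42 ± 0.11. Shisa2 and Shisa3, which encode proteins that retain Frizzled receptors inside the cell, had log2 ratios of -1.98 and -1.88 and fell. Of 10 secreted antagonists tested, 1 rose and 3 fell. Wif1, encoding a WNT-binding inhibitor, rose by 0.76 ± 0.15 (SE, adjusted p = 0.0085), whereas the Frizzled-related genes Sfrp1 and Sfrp2 and the LRP inhibitor gene Dkk1 fell, with log2 ratios of -1.10, -1.40 and -0.53.

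**Figure D4:**
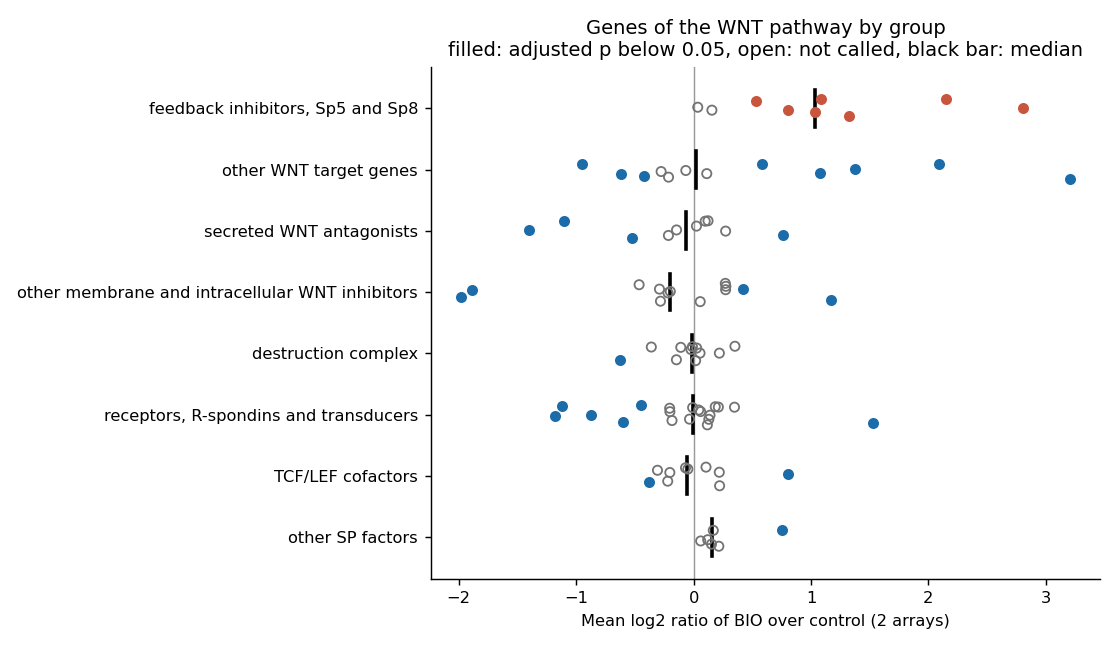
Mean log2 ratio of BIO over control for the tested genes of each pathway group, 1 point per gene at its brightest probe. Filled points passed an adjusted p below 0.05, open points did not, and the black bar is the median. The group of TCF/LEF cofactors also holds the factor genes Tcf7l1 and Tcf7l2. The median of the members, 1.03, lies apart from the other medians shown, which range from -0.20 to 0.16. The cell cycle genes, which are not shown here, had a median of 0.94.

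The list of the destruction complex held 11 genes, among them Ctnnb1, whose product the complex holds low. Of these, 0 rose and 1 fell (limma). The gene that fell was Ctnnb1, with a log2 ratio of -0.63, and no gene of the complex itself was called. Axin1, the paralog of Axin2 that is made without WNT input, had a ratio of 0.32 and 0.12 on the 2 arrays and a mean of 0.22 ± 0.11 (SE, adjusted p = 0.20). Of 19 tested receptors, R-spondins and transducers, 1 rose, 5 fell and 13 were not called. Fzd10 rose by 1.53 ± 0.11, and the largest fall was that of Fzd4, with -1.18. The R-spondin genes Rspo2 and Rspo3, whose products restrain ZNRF3 and RNF43, fell with log2 ratios of -0.44 and -1.12. Of 10 genes in the list of TCF/LEF cofactors and repressors, Tle4 rose by 0.80 and Tle2 fell, with -0.38, and the other 8 were not called. That list also held Tcf7l1 and Tcf7l2, which encode TCF/LEF factors themselves and had log2 ratios of -0.31 and -0.22.

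By the distance between the 2 array ratios, the genes most like Axin2 were Lgr5, Zic2 and Higd1c. Lgr5 had ratios of 2.13 and 2.05, at a distance of 0.14 on the log2 scale, and Zic2 had 2.25 and 1.87, at 0.15. Higd1c followed with 2.09 and 2.13, at 0.20. The genes most like Sp5 were Cdkn2b, at 2.45 and 2.91 and a distance of 0.22, Nr1h5, at 2.74 and 2.69 and a distance of 0.26, and Notumos, at a distance of 0.32. Likeness was measured over 2 arrays only.

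The genes next to the members in the RefSeq order were read as well. Notumos is not in that table, so it does not count as a neighbor of Notum although it was tested and rose. Of 18 nearest tested neighbors in the table, 7 rose and 1 fell, which is 38.9% against 9.13% of all genes, and their median log2 ratio was 0.27. Up to 8 untested genes lay between a member and its neighbor. Hsf5 beside Rnf43 had a log2 ratio of 0.80, close to the 0.81 of Rnf43, and 2700046A07Rik beside Apcdd1 had 0.91 (adjusted p = 0.00078). Erich2 beside Sp5 rose by 0.70 and Myadml2 beside Notum by 0.68. Cep112 beside Axin2 rose by 0.45, and Slc12a7 and Trip13, on either side of Nkd2, rose by 0.55 and 0.63. Napg, on the other side of Apcdd1, was the one that fell, with -0.42. Both neighbors of Nkd1, Znrf3 and Sp8 were not called. Axin2, Notum, Znrf3 and Rnf43 all lie on chromosome 11, which held 7.51% of the genes tested.

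**Figure D5:**
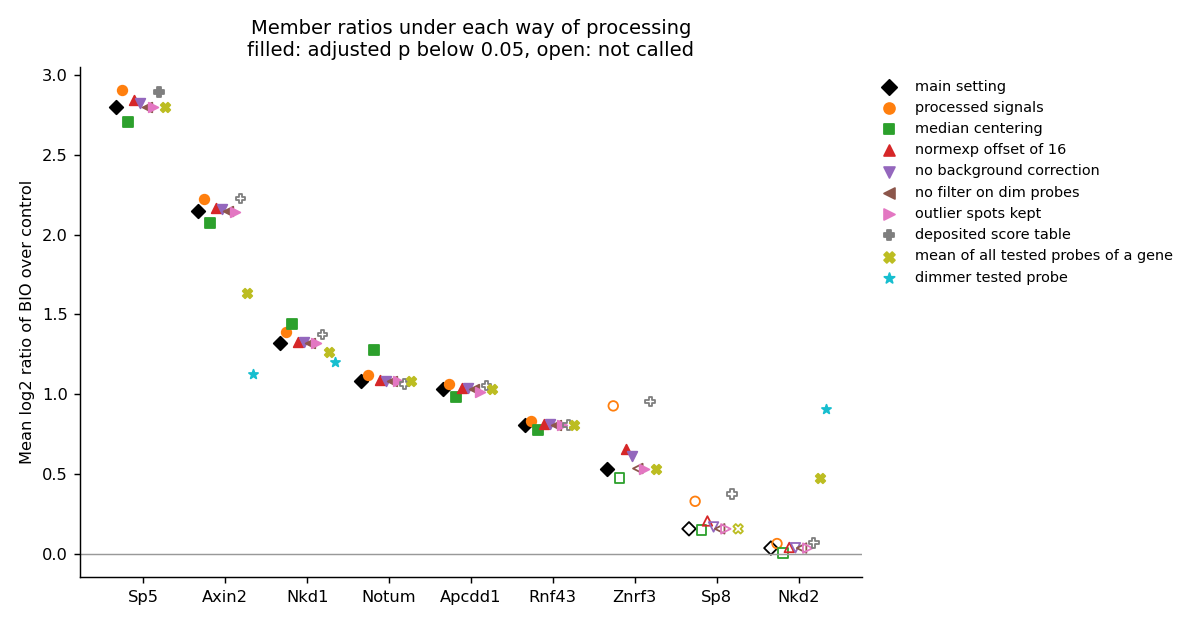
Mean log2 ratio of BIO over control of each member under the main processing and 9 alternatives, which are listed in the key. Filled symbols passed an adjusted p below 0.05 and open symbols did not. Values of Sp5, Nkd1, Apcdd1 and Rnf43 stay within a narrow range, Axin2 and Nkd2 move with the choice of probe, and Znrf3 is open in 4 of the alternatives.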

How the data were processed

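Total RNA of 2 control and 2 BIO pools was hybridized to 2 Agilent 2-color arrays with a dye swap, and per the labels the authors quantified them with Feature Extraction 10.7.3.1. The deposited scanner files give spot intensities (mean signal, local background, and processed signals that Feature Extraction had background-subtracted and dye-normalized). The authors also deposited a score per probe and array, made in a way that is not given in the sources used here. Compared with the scanner files it follows a signed fold of BIO over control, with its exact centering unknown. Probe coordinates are those of the file headers (mm9).

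Mean intensities were corrected by normexp (offset 50) and normalized by loess in limma 3.58.1 (R 4.3.3). Control spots and outliers were left out, the 4 spots of a probe were averaged, and 28824 of 39429 probes well above background in either condition on both arrays were tested against 0 in a two-sided test by lmFit and eBayes, and p-values were adjusted over all of them by Benjamini-Hochberg at 0.05. The moderated test had 8.14 degrees of freedom, and the median standard error was 0.11 (log2). Having only 2 arrays limits the precision, and 95% intervals use that fit. A gene was read at its brightest probe. The study describes separate pools, and both arrays lay on 1 slide. Names came from RefSeq (GRCm38.p6) where a probe matched it. The other 7458 probes kept the name in the scanner files, and such names are counted among all genes. In replicate 1, 80.9% (control) and 70.1% (BIO) of spots were well above background, in replicate 2 73.7% and 78.1%. For the fold-change rule, processed signals below 15 were set to 15, and each array was centered on its median.

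The members, gene lists and motifs were chosen with earlier results of these data known. Genes named are all members with every probe, for each list the called genes with the largest and smallest ratio and others chosen for their role after values were seen, and nearest genes by ratio and by position. Sequences for proteins and for Apcdd1 are not reported here.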

Additional observations from a re-analysis of the deposited data

How the results depend on the processing

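Across 8 ways of processing, the 9 members gave 72 comparisons with the main setting. In 62 of them direction and call were the same, in 9 a call was lost and in 1 it was gained. Znrf3 lost its call with processed signals (0.93), median centering (0.48), no filter on dim probes (0.53) and the score table (0.95), while Nkd2 gained one with the mean of all its tested probes (0.47, adjusted p = 0.014, limma) and with its dimmer probe (0.91). The dimmer probe was added as an alternative after the data had been seen. In the score table only 1 member and 1 member probe rose in place of 7 and 10, while 1929 of all genes rose in place of 1970. The values kept their size, with 1.06 for Apcdd1, 2.23 for Axin2, 1.37 for Nkd1, 1.06 for Notum and 0.81 for Rnf43, but only Sp5 passed the test. Of all genes, 5154 changed in the main setting, 2766 when arrays were median-centered and 3248 by the scores. Loess moved the median of the tested probes by 0.21 in replicate 1 and by -0.06 in replicate 2 against median centering. With median centering 827 genes rose and 1939 fell, against 1970 and 3184, and limma gave all probes 1 common standard error of 0.22. By the scores 1929 rose and 1319 fell, and with processed signals 1546 rose and 2074 fell. The cause of these shifts was not tested.

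Without replicate 1 the median of the members was 0.88 and without replicate 2 it was 1.21. Single arrays gave 0.86 to 1.21 for Apcdd1, 2.03 to 2.27 for Axin2, 1.254 to 1.39 for Nkd1, -0.00 to 0.08 for Nkd2, 0.93 to 1.23 for Notum, 0.73 to 0.88 for Rnf43, 2.66 to 2.94 for Sp5, 0.10 to 0.22 for Sp8 and 0.25 to 0.82 for Znrf3. The count of members at least 2-fold higher was 3 without replicate 1, beside 351 of all genes tested, and 5 without replicate 2, beside 334. With a minimum of 1.5-fold on both arrays it was 6, beside 731 of all genes tested. The fit was already paired, since each ratio sets a BIO pool against the control pool of the same array. No paired analysis was possible beyond it, because a further term for the replicate or the dye would leave no residual degree of freedom. Signals of Znrf3 and Sp8 were low.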
